A study of Mus musculus with 8 samples.

Results

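The mitosis genes are 42 genes whose products carry a cell through chromosome condensation, spindle assembly, chromosome segregation and cytokinesis. They were taken by symbol from the annotation of the array, and each gene was represented by the probe set with the highest mean log2 intensity among those that name it alone. This gave values for 41 of the 42 genes, out of 18193 genes measured in all, and Ccnb1 (cyclin B1) was the 1 member with no probe set of its own. The genes fall into 8 roles: mitotic kinases and cyclins, the spindle checkpoint, the chromosomal passenger complex, partners of the anaphase-promoting complex, centromere and kinetochore proteins, spindle motors and microtubule proteins, midzone and cytokinesis proteins, and chromosome structure proteins.

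Entry into mitosis is driven by cyclin-dependent kinase 1 bound to A-type and B-type cyclins, and by the Aurora and Polo-like kinases. Kinetochores then attach chromosomes to spindle microtubules, and the spindle checkpoint holds back the anaphase-promoting complex until every chromosome is attached. Most of these genes are transcribed together late in the cell cycle by the MuvB complex acting with B-Myb and FoxM1, so their transcripts are abundant in dividing cells and scarce in resting ones. Fetal liver stem cells divide actively, whereas most adult bone marrow stem cells rest.

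RNA was measured on 8 Affymetrix arrays, each holding Lin-Sca+Kit+ haematopoietic stem cells from the fetal liver of 1 C57/B6 mouse. The mice were ADAR1 null (3 arrays, null 1 to 3), ADAR1 heterozygous (3 arrays, het 1 to 3) and wild type (2 arrays). ADAR1, the product of Adar, is an enzyme that deaminates adenosine to inosine in double-stranded RNA. The RNA was amplified and biotin-labelled. The labels give no embryonic age, allele structure or Cre line. The 5 heterozygous and wild-type arrays, all from mice with at least 1 intact allele, also serve as 1 group of controls. Levels below are log2 of the deposited intensity, and differences are in log2 units with limma standard errors (SE). The 41 members spanned mean levels from 4.67 to 11.82 with a median of 7.04, and 38 of them lay above background on all 8 arrays, background being the highest of 27 bacterial control probe sets on each array.

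Array measures differed between the groups, though not on every null array. Hepatocyte and macrophage markers summed lower on all null arrays than on any control array, while markers of 4 other cell types overlapped. Probe sets above background were 40.0%, 46.4% and 44.7% of all probe sets on null 1 to 3, against 45.6% to 61.2% on the control arrays, and the spike-in controls read 11.87, 11.33 and 12.01 on the null arrays, against 10.95 to 11.54. Null 1 and 3 lay outside the control range on both measures and null 2 inside it. The upper quartile of log2 intensity followed the same order, with 3.98, 4.40 and 4.01 on the null arrays, against 4.20 to 4.51 on the control arrays, so the deposited values do not share 1 distribution across arrays. The ratio of the 3′ to the 5′ Gapdh control probe set, a common index of RNA quality, was 7.45, 8.73 and 7.67 on the null arrays, against 4.78 to 9.0 on heterozygous and 4.32 and 4.39 on wild-type arrays. All null arrays were above 4 of the 5 controls on that ratio, and het 3 was the highest of all. Hepatocyte and hepatoblast markers summed to 93.5 to 124 linear units on the null arrays, against 656 to 1170 on heterozygous and 276 to 652 on wild-type arrays, with 5 of 12 measured markers at background on all null arrays (Apob, Ttr, Ahsg, Krt8 and Krt18). At background were 4 of the 12 on both wild-type arrays, 0 on all heterozygous arrays and 0 on all 5 control arrays together. Macrophage markers summed to 73.9 to 86.3 on null, 229 to 366 on heterozygous and 169 to 688 on wild-type arrays, with 7 of 11 at background on all null arrays, Csf1r and Adgre1 among them, and Adgre1 and Cd163 at background on all control arrays. Within single groups, 2 of the 11 were at background on all heterozygous and 3 on both wild-type arrays. The background level itself was 3.22, 2.89 and 3.04 on null 1 to 3, against 2.63 to 2.80 on heterozygous and 2.83 and 3.03 on wild-type arrays. Erythroid markers summed to 1181 to 2451 on null and 1355 to 3558 on control arrays, and megakaryocyte markers to 4427 to 5971 and 4665 to 5386. Lymphoid markers summed to 48.9 to 56.1 on null and 43.7 to 54.0 on control arrays, and mast cell markers to 52.8 to 63.1 and 47.5 to 55.6. The 18 measured stem and progenitor markers summed to 2157 to 3137 on null, 3202 to 3329 on heterozygous and 2896 to 3023 on wild-type arrays, and 10 had negative differences between null cells and controls. An unadjusted p under 0.05 (limma) was reached by 3 lower and 1 higher. Among the markers, Gata2, Tal1, Lmo2, Myb, Runx1 and Fli1 were bright in every group, Procr and Gfi1 were at background on all arrays, and Kit, on which the cells were sorted, read 3.22 to 3.73 on null arrays against 3.55 to 4.55 on control arrays. The part of these differences in the values of the mitosis genes was not tested. The brightest Adar probe set read 5.90, 7.17 and 7.46 on the null arrays, against 2.94 to 4.14 on the control arrays, and since the position of its probes relative to the null allele is not known here, this level does not check the genotype labels.

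Promoters are shown because the members are known to share control elements near their start sites. The RefSeq promoter table (GRCm38.p6, 250 bases before to 50 after each start) held 36 of the 42 members, with 38 promoters. Aurkb, Ccna2, Incenp, Kif20a, Smc4 and Tpx2 had no entry. The letters TTTGAA, the cell cycle genes homology region (CHR) read by MuvB, and CCAAT, the box bound by NF-Y, were searched on both strands, as was TTTAAA, a variant CHR. Below, 7 stretches of 170 bases (120 before the start and 50 from it on) are printed 5′ to 3′ in the direction of transcription, with each of these motifs in capitals (TTCAAA is TTTGAA, and ATTGG is CCAAT, on the opposite strand, while TTTAAA reads the same on both). Ccnb2 shows the classical arrangement. Aurka, Mki67 and Kif4 are members whose null arrays all lay below the controls, Kif11 and Ncaph had a further probe set past the threshold, and Smc2 was not lower in null cells. The stretches lie at chr9:70421505-70421674 (minus strand, Ccnb2), chr2:172370521-172370690 (minus, Aurka), chr7:135716330-135716499 (minus, Mki67), chrX:100625945-100626114 (plus, Kif4), chr19:37376262-37376431 (plus, Kif11), chr2:127133905-127134074 (minus, Ncaph) and chr4:52439101-52439270 (plus, Smc2).
Ccnb2: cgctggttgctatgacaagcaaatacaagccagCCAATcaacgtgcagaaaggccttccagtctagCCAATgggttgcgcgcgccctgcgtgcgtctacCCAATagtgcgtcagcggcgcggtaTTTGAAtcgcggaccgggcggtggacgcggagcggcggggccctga
Aurka: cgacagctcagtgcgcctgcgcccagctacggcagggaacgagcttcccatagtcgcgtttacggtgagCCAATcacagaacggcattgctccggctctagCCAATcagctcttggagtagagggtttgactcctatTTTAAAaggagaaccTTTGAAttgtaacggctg
Mki67: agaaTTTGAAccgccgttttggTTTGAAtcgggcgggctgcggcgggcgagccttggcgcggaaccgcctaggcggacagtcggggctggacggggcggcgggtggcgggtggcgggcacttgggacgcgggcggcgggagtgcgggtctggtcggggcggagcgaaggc
Kif4: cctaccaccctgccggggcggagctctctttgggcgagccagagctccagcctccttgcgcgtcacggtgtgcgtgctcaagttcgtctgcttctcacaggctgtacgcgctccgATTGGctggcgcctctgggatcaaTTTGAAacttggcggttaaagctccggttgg
Kif11: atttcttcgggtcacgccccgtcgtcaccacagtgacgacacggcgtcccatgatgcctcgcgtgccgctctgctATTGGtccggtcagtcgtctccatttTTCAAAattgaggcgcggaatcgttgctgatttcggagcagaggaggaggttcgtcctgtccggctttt
Ncaph: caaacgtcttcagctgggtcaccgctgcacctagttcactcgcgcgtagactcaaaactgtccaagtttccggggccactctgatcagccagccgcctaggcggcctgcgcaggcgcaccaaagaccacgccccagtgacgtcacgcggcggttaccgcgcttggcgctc
Smc2: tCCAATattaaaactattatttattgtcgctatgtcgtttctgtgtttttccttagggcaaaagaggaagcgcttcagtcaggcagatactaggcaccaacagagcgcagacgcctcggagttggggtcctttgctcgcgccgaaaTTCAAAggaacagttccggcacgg

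In these stretches Ccnb2 has CCAAT boxes starting 87, 54 and 21 bases before the start and TTTGAA at base 5. Aurka has TTTAAA at base 18 and TTTGAA at base 33, Kif4 has TTTGAA at base 20, and Kif11 has it on the opposite strand 19 bases before the start. Ncaph shows none of the 3 motifs in this window. Over whole promoters, TTTGAA occurred in 29 of 38 member promoters (76.3%), against 17.9% of 32851 promoters of all genes and 12.5% of 5987 promoters of array genes in the members' range of mean level. Within 50 bases of the start it occurred in 26 member promoters (68.4%), against 4.94% of all promoters and 3.39% of those in the range. CCAAT occurred in 30 member promoters (78.9%, against 37.4% and 38.2%), TTTAAA in 9 (23.7%, against 13.2% and 8.67%), and TTTGAA with CCAAT in 26 (68.4%, against 6.95% and 5.26%). Among the members measured on the array, the 27 with TTTGAA had a median difference between null and control cells of -0.65 with 25 below 0, and the 8 without it a median of -0.95 with 8 below 0. Of these 8, Birc5 and Cenpe carry the variant TTTAAA, and the 6 members with no promoter entry are in neither group.

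Null cells were first compared with all controls, to ask whether the mitotic programme differs in stem cells without ADAR1. Most mitosis genes read lower in null cells, but with a wide scatter between the 3 null mice, and none of the 41 passed the threshold on its brightest probe set. The difference was negative for 38 of 41 members (92.7%), against 45.9% of all genes and 68.9% of the 5705 genes in the members' range of mean level. Its median over the members was -0.85, against 0.03 over all genes and -0.36 over the genes in that range. At an adjusted p of 0.05 (limma, Benjamini-Hochberg), 0 members were called, against 0.934% of all genes and 2.38% of those in the range, and the smallest adjusted p was 0.110 for Ccna2. At an unadjusted p under 0.05, 17 members were lower in null cells (41.5%, against 7.98% of all genes and 19.5% of those in the range) and 0 were higher (5.51% and 6.17%). That count of 17 became 11 without null 1, 11 without het 3 and 10 after quantile normalization of the arrays. All 3 null arrays lay below all 5 control arrays for 7 members (17.1%, against 4.95% of all genes and 11.0% of those in the range). These were Ccna2, Aurka, Nek2, Aurkb, Kif4, Ncaph and Mki67. For 0 members did all null arrays lie above all controls (4.19% and 4.05%). In bulk RNA, fewer dividing cells and less of each transcript per cell cannot be told apart.

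**Figure D1:**
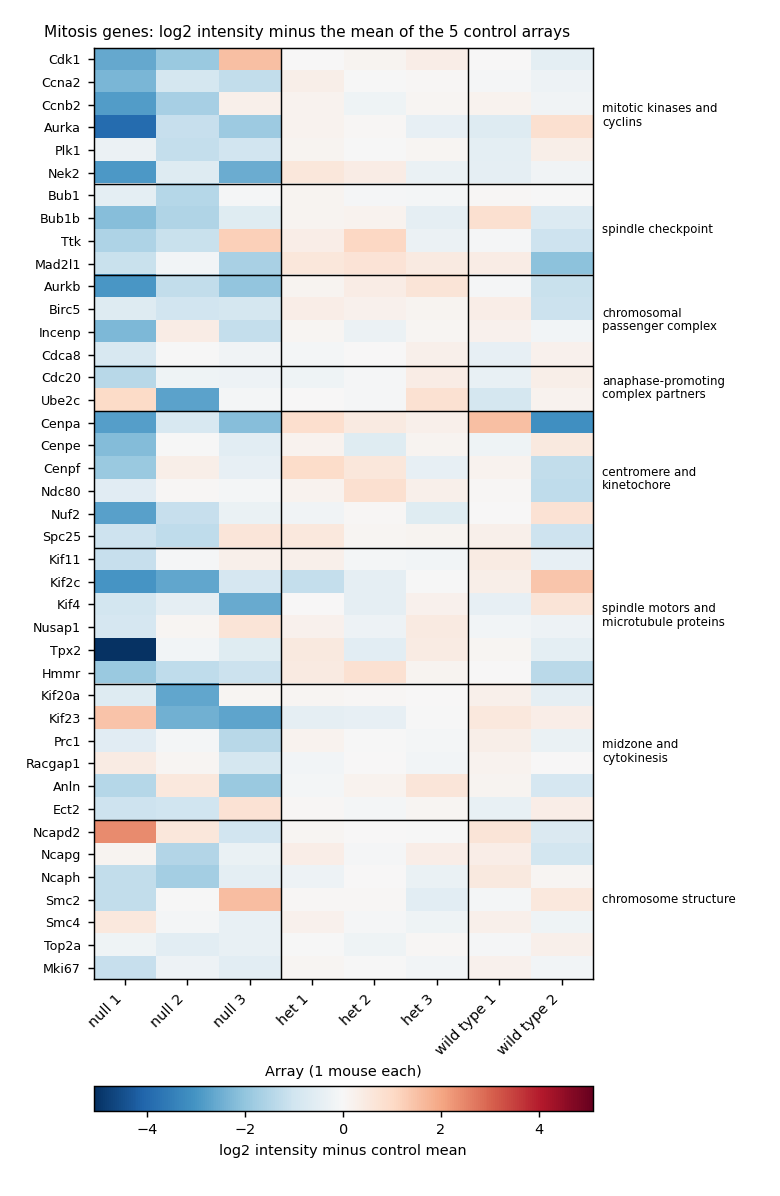
Each member (rows, grouped by role) on each array (columns): log2 intensity minus the mean of the 5 control arrays, blue for lower and red for higher. Most cells of the 3 null columns are blue, but null 1 is red for Ncapd2 and Kif23, and null 3 for Cdk1 and Smc2.

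The mitotic kinases and cyclins had a median difference of -1.45, and all 6 measured members were below 0. Ccna2 (cyclin A2, which partners cyclin-dependent kinases in S phase and early mitosis) read 6.74, 8.16 and 7.81 on null 1 to 3, 9.36, 9.02 and 9.11 on het 1 to 3, and 8.99 and 8.78 on the wild-type arrays. On this probe set every null array lay below every control array, by a mean of -1.48 ± 0.31 (SE), 2.80-fold (limma, adjusted p = 0.110). The dimmer Ccna2 probe set read 4.83, 6.79 and 6.46 on null, 6.91 to 7.74 on heterozygous, and 7.14 and 4.69 on wild-type arrays. There the groups overlapped (-0.72 ± 0.74, limma, adjusted p = 0.727). Aurka, the kinase that matures centrosomes, read 3.63, 6.35 and 5.68 on null, 7.72, 7.60 and 7.14 on heterozygous, and 6.90 and 8.38 on wild-type arrays. Its groups did not overlap, with null 1 far below the rest, and its difference of -2.33 ± 0.61 (5.01-fold, limma, adjusted p = 0.207) was the largest of any member. Nek2, a kinase that separates centrosomes, read 3.07, 5.32 and 3.46 on null, 6.57, 6.37 and 5.65 on heterozygous, and 5.55 and 5.81 on wild-type arrays. Null 1 was at background for Nek2, null 2 reached nearly the lowest control, and the difference was -2.04 ± 0.51 (limma, adjusted p = 0.183).

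The core mitotic kinase itself did not follow this order on every array. Cdk1 read 6.06, 6.76 and 10.21 on null, 8.71, 8.80 and 9.0 on heterozygous, and 8.69 and 8.16 on wild-type arrays. Null 1 and 2 were below all controls and null 3 above all of them, so the difference of -1.0 ± 0.84 was within the spread (limma, adjusted p = 0.668). Its partner Ccnb2 (cyclin B2) showed the same order, with 5.90, 7.08 and 9.02 on null, 8.92, 8.53 and 8.84 on heterozygous, and 8.92 and 8.56 on wild-type arrays. Without null 3 both passed the threshold (Cdk1 -2.26, adjusted p = 0.0190, and Ccnb2 -2.26, adjusted p = 0.0307, limma). Each array was left out in turn, and null 3 is the one that ran the other way for both genes. These passes therefore do not show a lower level in null cells. Over all probe sets, the 262 calls with all arrays ranged from 156 to 792 with 1 array left out. Plk1, the Polo-like kinase, differed by -0.84 ± 0.26 (limma, adjusted p = 0.283).

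**Figure D2:**
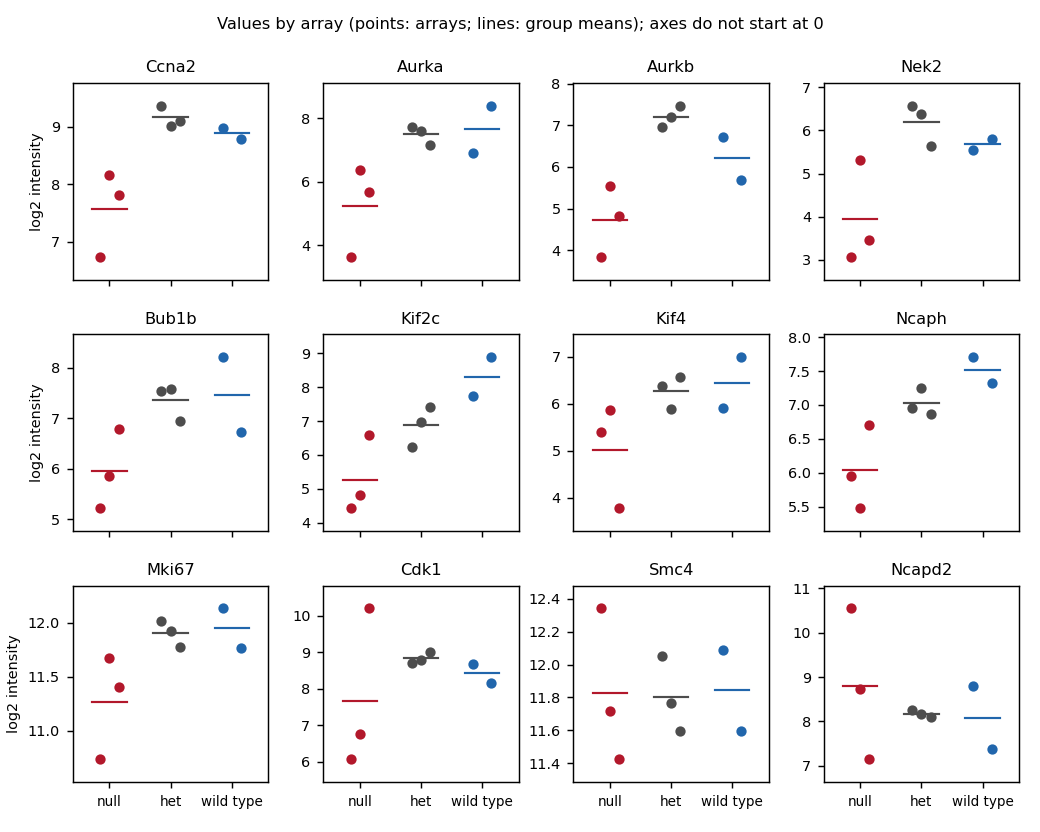
log2 intensity of 12 members on each array (points; horizontal lines are group means), in null, heterozygous and wild-type cells. The first 9 panels except Bub1b and Kif2c show null arrays that do not overlap the controls, Cdk1 has 1 null array above all controls, and Smc4 and Ncapd2 have null means at or above the control means.

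All 4 spindle checkpoint genes had negative differences, with a median of -0.82. Bub1b (BubR1, part of the complex that inhibits the anaphase-promoting complex) read 5.22, 5.85 and 6.79 on null, 7.54, 7.58 and 6.94 on heterozygous, and 8.21 and 6.72 on wild-type arrays. Null 3 lay just above wild type 2, and the difference was -1.45 ± 0.43 (limma, adjusted p = 0.269). Mad2l1 (Mad2, another inhibitor in that complex) read 6.12, 7.10 and 5.60 on null, 7.81, 7.92 and 7.71 on heterozygous, and 7.61 and 5.13 on wild-type arrays. The lowest value of all was that of wild type 2, so null cells lay below heterozygous cells on every array but not below wild type (null minus controls -0.96 ± 0.69, limma, adjusted p = 0.611). The kinases Bub1 and Ttk differed by -0.67 ± 0.28 and -0.49 ± 0.70.

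The 4 chromosomal passenger genes, whose products correct wrong spindle attachments, had a median difference of -0.94. Aurkb, the kinase of the complex, read 3.84, 5.54 and 4.82 on null, 6.95, 7.20 and 7.47 on heterozygous, and 6.73 and 5.69 on wild-type arrays. The groups did not overlap, although null 2 and wild type 2 came close, and the difference was -2.08 ± 0.49 (4.22-fold, limma, adjusted p = 0.156). Incenp, its scaffold, read 8.21, 10.88 and 9.26 on null, 10.60, 10.19 and 10.58 on heterozygous, and 10.72 and 10.33 on wild-type arrays. Null 2 was above all controls while null 1 and 3 were below them (-1.03 ± 0.52, limma, adjusted p = 0.493). Without null 2, the array that ran the other way, Incenp passed the threshold (-1.75, limma, adjusted p = 0.0416). This order held on that probe set only. The next Incenp probe set read 7.25, 7.16 and 9.36 on null and 8.43 to 9.12 on control arrays. There null 2 was the lowest array and null 3 above all controls (-0.75 ± 0.49, limma, adjusted p = 0.587). Birc5 (survivin) differed by -0.85 ± 0.34, with all null arrays above wild type 2, and passed without that array (-1.12, adjusted p = 0.0182). Cdca8 (borealin) was among the brightest members and differed by -0.34 ± 0.23.

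The 2 partners of the anaphase-promoting complex had a median difference of -0.62, and neither separated null from control arrays on its brightest probe set. Cdc20, its mitotic activator, read 7.69, 8.89 and 8.86 on null, 8.87, 9.06 and 9.46 on heterozygous, and 8.72 and 9.39 on wild-type arrays. Only null 1 lay clearly below the controls (-0.62 ± 0.32, limma, adjusted p = 0.501). Ube2c, its ubiquitin-conjugating enzyme, read 9.44, 5.75 and 8.39 on null, 8.51, 8.40 and 9.25 on heterozygous, and 7.60 and 8.65 on wild-type arrays. Null 1 was the highest array and null 2 the lowest, so the difference of -0.62 ± 0.77 rested on null 2, and without that array it was 0.43.

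The 6 centromere and kinetochore genes all had negative differences, with a median of -0.80 and 1 of 6 at an unadjusted p under 0.05 (16.7%, against 19.5% of genes in the range). Nuf2, a subunit of the Ndc80 complex that holds microtubules, read 4.23, 5.85 and 6.68 on null, 6.82, 7.06 and 6.38 on heterozygous, and 7.05 and 7.77 on wild-type arrays. Null 1 and 2 lay below all controls and null 3 among them (-1.43 ± 0.54, limma, adjusted p = 0.383). Cenpa, the histone H3 variant of centromeres, read 2.97, 4.98 and 3.6 on null, 6.64, 6.24 and 6.03 on heterozygous, and 7.30 and 2.66 on wild-type arrays. Wild type 2 and null 1 were at background on this probe set, and its difference of -1.93 ± 1.02 was within the spread (limma, adjusted p = 0.515). The next Cenpa probe set read 5.09, 3.34 and 3.94 on null and 5.19 to 5.57 on control arrays. There all null arrays lay below all controls (-1.26 ± 0.35, limma, adjusted p = 0.236). Cenpe, a kinetochore motor, Cenpf, Ndc80 and Spc25 differed by -0.93, -0.67, -0.21 and -0.58.

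The spindle motors and microtubule proteins had a median difference of -1.38. Kif2c (MCAK, which depolymerises microtubules at centromeres) read 4.43, 4.82 and 6.58 on null, 6.23, 6.98 and 7.42 on heterozygous, and 7.73 and 8.88 on wild-type arrays. On this probe set the groups overlapped only between null 3 and het 1, and wild-type cells were the highest (null minus controls -2.17 ± 0.67, limma, adjusted p = 0.283). On the next Kif2c probe set the wild-type mean, 5.72, was below the heterozygous mean, 6.01. There null minus controls was -0.86 ± 0.55 (limma, adjusted p = 0.578). Kif4, a chromosome-bound kinesin encoded on the X chromosome, read 5.40, 5.86 and 3.78 on null, 6.37, 5.89 and 6.56 on heterozygous, and 5.91 and 6.99 on wild-type arrays. Its groups did not overlap, but null 2 and het 2 were nearly level (-1.33 ± 0.48, limma, adjusted p = 0.362). Tpx2, the spindle assembly factor that activates Aurora A, read 2.73, 7.63 and 7.16 on null, 8.27, 7.24 and 8.19 on heterozygous, and 7.86 and 7.27 on wild-type arrays. Its difference of -1.93 ± 1.04 rested on null 1, which was at background (limma, adjusted p = 0.520). Hmmr, a spindle protein, differed by -1.44 ± 0.47, Kif11 by -0.34 ± 0.34 and Nusap1 by -0.04 ± 0.34.

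Genes of the spindle midzone and of cytokinesis had a median difference of -0.82. Kif20a, a midzone kinesin, read 8.40, 6.42 and 9.15 on null, 9.18, 9.14 and 9.09 on heterozygous, and 9.33 and 8.61 on wild-type arrays. Null 2 was far below the rest and null 3 level with the heterozygous arrays (-1.08 ± 0.55, limma, adjusted p = 0.50). Kif23, a subunit of centralspindlin, read 9.30, 5.38 and 5.15 on null, 7.38, 7.42 and 7.80 on heterozygous, and 8.38 and 8.15 on wild-type arrays. On this probe set null 1 was the highest of all arrays and null 2 and 3 the lowest. The difference was -1.22 ± 0.90 with all arrays (limma, adjusted p = 0.622), and without null 1 it was -2.56 and passed (adjusted p = 0.0215). The high value of null 1 held on that probe set only. The next Kif23 probe set was nearly as bright, with a mean level of 7.34 against 7.37. There all null arrays lay below all controls, although null 2 and het 3 were nearly level (-2.46 ± 0.74, limma, adjusted p = 0.271). Prc1, which bundles midzone microtubules, differed by -0.69 ± 0.29, and Racgap1, Anln and Ect2 by -0.12, -0.94 and -0.44.

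The 7 chromosome structure genes had the smallest median difference of the roles, -0.37, and the 3 members with a positive difference were all here. Ncapd2, a condensin I subunit, read 10.54, 8.73 and 7.15 on null, 8.25, 8.16 and 8.11 on heterozygous, and 8.80 and 7.38 on wild-type arrays. The null arrays spanned the whole range of the controls and beyond (0.67 ± 0.69, limma, adjusted p = 0.726), and without null 1 the sign turned to -0.20. Ncaph, the kleisin subunit of the same complex, read 5.96, 5.48 and 6.70 on null, 6.96, 7.25 and 6.86 on heterozygous, and 7.70 and 7.32 on wild-type arrays. All null arrays lay below all controls (-1.17 ± 0.30, 2.25-fold, limma, adjusted p = 0.192). Smc4 and Smc2, the ATPase subunits common to both condensins, differed by 0.01 ± 0.23 and 0.10 ± 0.57. Mki67 (Ki-67, which coats mitotic chromosomes and marks proliferating cells) read 10.73, 11.67 and 11.40 on null, 12.02, 11.92 and 11.78 on heterozygous, and 12.13 and 11.76 on wild-type arrays. It was among the brightest members, its groups did not overlap, and the difference was small, -0.65 ± 0.22 (1.57-fold, limma, adjusted p = 0.318). Top2a, the topoisomerase that untangles sister chromatids, differed by -0.37 ± 0.14.

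**Figure D3:**
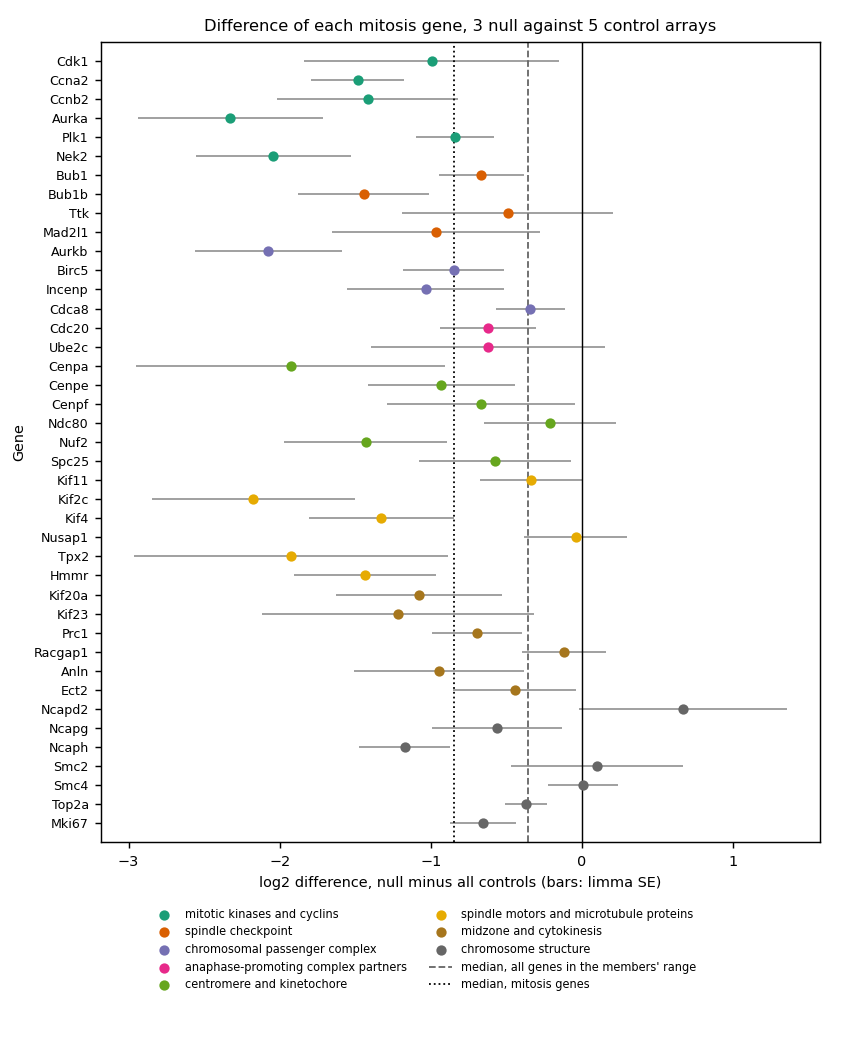
Difference of each member, null minus all controls (points, coloured by role; bars are limma SE), in log2 units. Of the points, 38 of 41 lie left of 0, and the dotted median of the mitosis genes (-0.85) lies left of the dashed median of genes in the same range of level (-0.36).

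The 3 null mice differed from each other more than the heterozygous mice did. The median SD of a member was 1.01 over the null arrays (n = 3), against 0.24 over the heterozygous (n = 3) and 0.51 over the wild-type arrays (n = 2). For genes in the same range of level the medians were 0.82, 0.29 and 0.45. The SD over null arrays was above that over heterozygous arrays for 40 of 41 members (97.6%), against 86.2% of genes in the range and 75.6% of all genes. Relative to the control mean, the median member stood at -1.19 on null 1, -0.80 on null 2 and -0.52 on null 3, against 0.14, 0.01 and 0.09 on het 1 to 3, and 0.09 and -0.22 on the wild-type arrays. Genes in the same range of level stood at -0.57, -0.09 and -0.34 on null 1 to 3. Of the 41 members, 29 on null 1 lay below all 5 controls (70.7%, against 47.4% of genes in the range), 22 on null 2 (53.7%, against 29.0%) and 17 on null 3 (41.5%, against 40.4%). On null 3 the members' share was thus that of other genes of their level. Null 1, which had the lowest share of probe sets above background, was also the lowest null array for 24 of the 41 members and for 2612 of the 5705 genes in the range.

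On the probe sets that represent them, the members above all 5 controls on a null array differed between the null arrays. On null 1 they were Ube2c, Kif23, Racgap1, Ncapd2 and Smc4. On null 2 there was only Incenp, and on null 3 they were Cdk1, Ccnb2, Ttk, Spc25, Nusap1, Ect2 and Smc2. These are 12.2%, 2.44% and 17.1% of the members on null 1 to 3, against 17.2%, 23.0% and 19.5% of genes in the range. No member was above all controls on more than 1 null array.

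Besides the probe sets that represent them, 29 members have 54 further ones, and these gave the only calls. Of the 44 further probe sets whose mean lay above background, 38 had a negative difference between null cells and all controls (median -0.51). The same share was not taken over the further probe sets of other genes. On brightest probe sets, 68.9% of genes in the members' range had negative differences (median -0.36). Of the 29 members with several probe sets above background, the brightest included, 22 had negative differences on every one, and 7 had mixed signs (Anln, Kif23, Ncapd2, Racgap1, Smc2, Smc4 and Top2a). For Kif23 and Anln the positive differences, 0.03 and 0.01, came from dim probe sets with mean levels of 2.90 and 3.32. The mean background level was 2.90. Passing the threshold were 4 probe sets of 4 members, against 0.582% of all tested probe sets and 1.15% of those above background. They are named after their values were seen. All 4 are dimmer than the probe set that represents their gene.

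The dimmer of the 2 Ncaph probe sets read 3.96, 3.88 and 3.59 on null, 5.66, 6.07 and 6.04 on heterozygous, and 5.53 and 6.5 on wild-type arrays. It fell by 2.15 ± 0.23 log2 units (4.42-fold, limma, adjusted p = 0.00728), which is larger than the gap on the brightest probe set, and the null arrays lay close together. The second of the 3 Kif11 probe sets, in order of brightness, read 4.34, 4.49 and 4.73 on null, 5.84, 6.18 and 6.33 on heterozygous, and 6.02 and 6.49 on wild-type arrays. Kif11 is the kinesin that pushes spindle poles apart. This probe set fell by 1.65 ± 0.17 log2 units (limma, adjusted p = 0.00663), while the brightest one read 7.33, 8.46 and 8.77 on null, 8.77, 8.42 and 8.36 on heterozygous, and 8.95 and 8.10 on wild-type arrays, and overlapped.

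The second of the 3 Bub1b probe sets read 4.84, 4.73 and 5.13 on null, 6.25, 6.3 and 6.26 on heterozygous, and 6.67 and 7.01 on wild-type arrays, a difference of -1.60 ± 0.21 (limma, adjusted p = 0.0187). The dimmest of the 3 Cdc20 probe sets read 4.18, 5.24 and 5.01 on null, 7.14, 6.22 and 7.18 on heterozygous, and 7.17 and 6.87 on wild-type arrays, a difference of -2.11 ± 0.31 (limma, adjusted p = 0.0327). Both separated the groups completely. Over 13 alternative settings, the Ncaph call was kept in all 13, the Kif11 call in 11, the Bub1b call in 6 and the Cdc20 call in 4. Which transcripts each probe set reads was not tested, since no probe sequences or positions were used here.

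**Figure D4:**
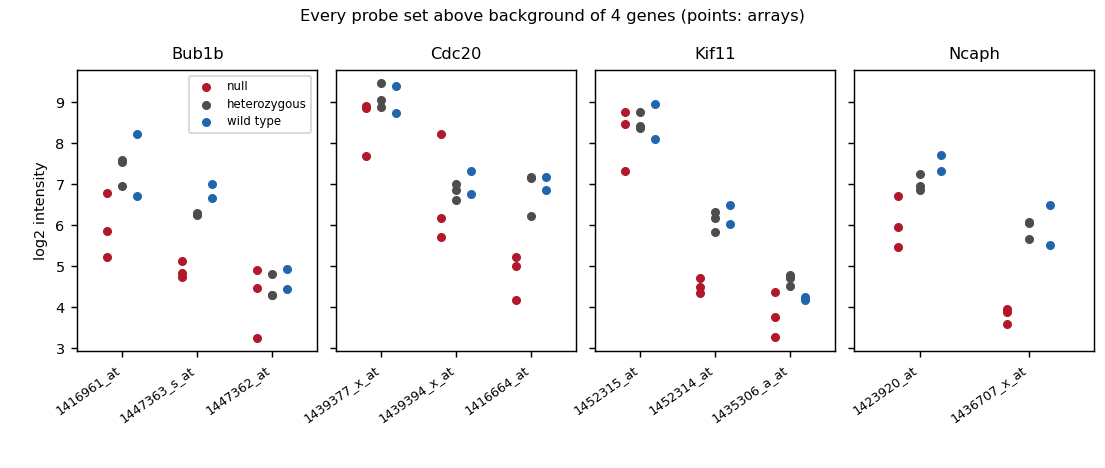
log2 intensity on each array (points, by genotype) of every probe set above background for Bub1b, Cdc20, Kif11 and Ncaph, ordered from the brightest. The null points lie below all control points for the 4 probe sets that passed, and overlap the controls for the brightest probe sets of Bub1b, Cdc20 and Kif11.

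Against single groups the picture was similar, and these comparisons share the null arrays with the one above. Against heterozygous cells, 0 of 41 members passed (0.770% of all genes did), 38 had negative differences (92.7%, against 43.7% of all genes and 72.1% of those in the range), the median was -0.93, and the smallest adjusted p was 0.126 (Aurkb, -2.47 ± 0.47, limma). Null and heterozygous arrays did not overlap for 14 members, all lower in null cells (34.1%, against 10.3% of all genes and 21.5% of those in the range). Against wild type, 0 of 41 passed (0.517% of all genes did), 37 had negative differences (90.2%, against 62.3% of genes in the range), the median was -0.68, and the smallest adjusted p was 0.275 (Kif2c, -3.03 ± 0.71, 8.18-fold, limma). The next Kif2c probe set differed from wild type by -0.69 ± 0.73 (limma, adjusted p = 0.863). Null and wild-type arrays did not overlap for 11 members, all lower in null cells (26.8%, against 10.8% and 17.1%). At an unadjusted p under 0.05, 11 members were lower than in heterozygous cells (7.88% of all genes and 17.8% of those in the range were) and 9 lower than in wild type (5.91% and 12.5%). The 11 became 7 without het 1, 7 without het 2 and 17 without null 3, and the 9 became 5 without wild type 1. The Kif11 and Bub1b probe sets named above also passed against each group alone, with adjusted p of 0.0333 and 0.0230 against heterozygous and 0.0465 and 0.0109 against wild type (limma), and the Ncaph probe set passed against heterozygous (0.0354) but not wild type (0.0573). Over all probe sets, 0.502% passed against heterozygous and 0.326% against wild type.

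Heterozygous cells were set against wild type to ask whether loss of 1 allele alters these genes. By limma 0 of 41 members passed, as did 0.00% of all genes, and the smallest adjusted p among members was 0.891. The median difference was 0.08, against -0.05 over all genes and 0.16 over genes in the members' range, and 16 members were below 0 (39.0%, against 38.1% of genes in the range). At an unadjusted p under 0.05, 2 members were higher in heterozygous cells (5.68% of genes in the range were) and 0 lower (1.77%). These were Ndc80 (1.03 ± 0.43) and Hmmr (1.14 ± 0.45), both low on wild type 2. Arrays did not overlap for 6 members higher (20.8% of genes in the range) and 3 lower (8.78%) in heterozygous cells. The largest differences were 1.45 ± 0.73 for Mad2l1 and -1.43 ± 0.71 for Kif2c, whose next probe set gave 0.29 ± 0.73.

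Other genes of the cell cycle give the setting of these values, all as null minus all controls where no other comparison is named. Among genes in the members' range of level, 68.9% had negative differences, 19.5% read lower with an unadjusted p under 0.05 and 6.17% higher. Of 82 further mitotic genes listed, 76 were measured, 60 had negative differences (78.9%, median -0.57), and at an unadjusted p under 0.05 there were 19 lower (25%) and 1 higher, of which 1 passed the threshold. This was Pbk, a mitotic kinase, which read 4.50, 4.71 and 4.0 on null, 7.17, 6.90 and 7.25 on heterozygous, and 6.78 and 5.67 on wild-type arrays and fell by 2.35 ± 0.37 log2 units (limma, adjusted p = 0.0443). Every null array lay below every control array, and the call was lost in 10 of 14 alternative settings. Cdc25c, the phosphatase that switches on Cdk1, and the kinase Melk differed by -2.65 ± 0.64 and -2.13 ± 0.37 (limma, adjusted p = 0.167 and 0.0616). Pttg1, named after its values were seen, ran the other way. Pttg1 is securin, the inhibitor of separase. It read 10.43, 10.13 and 9.88 on null, 8.92, 8.81 and 8.90 on heterozygous, and 7.82 and 7.90 on wild-type arrays, and the 3 genotypes did not overlap. It rose by 2.29 ± 0.18 against wild type (4.89-fold, limma, adjusted p = 0.00722) and by 1.27 ± 0.16 against heterozygous cells (adjusted p = 0.0341), and its difference from all controls, 1.68 ± 0.32, did not pass (adjusted p = 0.0887). Over 15 alternative settings, the call was kept in 13 against wild type and in 6 against heterozygous cells.

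Of 28 measured replication and S phase genes, 23 had negative differences (82.1%, median -0.54) and 0 passed against all controls, with 11 lower at an unadjusted p under 0.05 (39.3%). The largest were Tk1 (thymidine kinase, -2.03 ± 0.48), Rrm2 (a ribonucleotide reductase subunit, -1.85 ± 0.44) and Rfc3 (a clamp loader subunit, -1.63 ± 0.56). Against heterozygous cells alone 2 of the 28 passed, namely Rfc3 (-2.36 ± 0.22, limma, adjusted p = 0.0115) and Ccne1 (cyclin E1, -2.06 ± 0.22, adjusted p = 0.0166). On the wild-type arrays both were well below the heterozygous ones, at 4.63 and 4.23 for Rfc3 and 4.66 and 4.26 for Ccne1, against 5.91 or more. Of 20 transcription factors of the G2/M programme, 13 had negative differences (65.0%, median -0.21) and 0 passed, with 4 lower at an unadjusted p under 0.05 (20%), shares near or below those of genes in the range. Tfdp1, the partner of E2F factors, differed by -2.14 ± 0.54, E2f1 by -1.28 ± 0.86 and Lin9, a MuvB subunit, by 1.15 ± 0.53. Of 13 subunits and activators of the anaphase-promoting complex, 7 were below 0 (53.8%, median -0.63) and 0 passed, with 3 lower at an unadjusted p under 0.05 (23.1%). Of 10 measured cohesin genes, 5 were below 0 (50%) with a median of 0.00, and 0 passed, with 1 higher at an unadjusted p under 0.05. Of 7 cell cycle inhibitors, 2 were below 0 (28.6%, median 0.19) and 0 passed, with 1 lower at an unadjusted p under 0.05 (14.3%). Cdkn1b (p27) read 7.74, 7.40 and 2.74 on null arrays, against 3.22 to 4.68 on heterozygous and 4.90 and 5.60 on wild-type arrays, so null 1 and 2 were above all controls and null 3 below them.

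**Figure D5:**
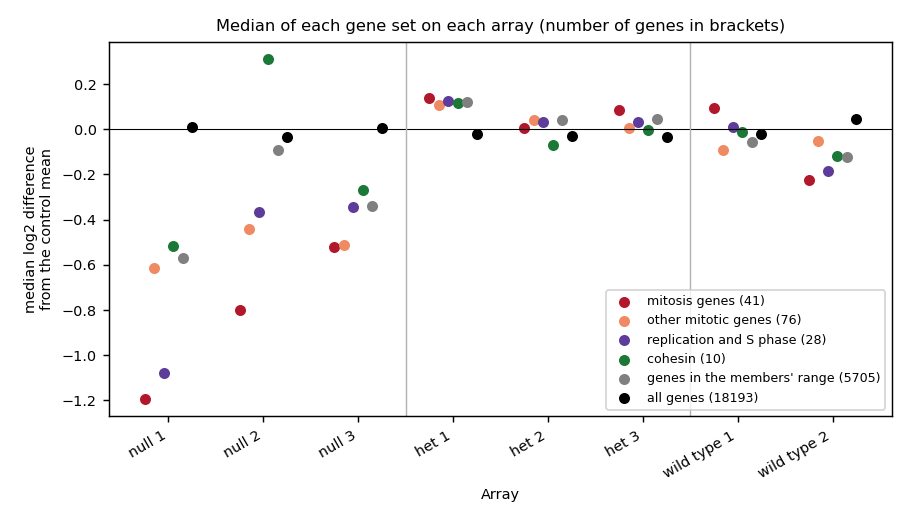
Median over each gene set of log2 intensity minus the control mean, on each array (numbers of genes in brackets). The mitosis genes lie at -1.19, -0.80 and -0.52 on null 1 to 3, genes in the members' range of level at -0.57, -0.09 and -0.34, and the median of all genes stays near 0 on every array.

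Of 10 measured housekeeping genes, 7 had negative differences (70.0%) with a median of -0.44, and an unadjusted p under 0.05 was reached by 5 lower genes (50%). Gusb fell by 2.15 ± 0.34 log2 units (limma, adjusted p = 0.0469), and B2m, which interferon induces, rose by 2.39 ± 0.30 (adjusted p = 0.0167). Of 12 measured hepatocyte and hepatoblast markers, 11 had negative differences (91.7%) with a median of -0.94, 4 reached an unadjusted p under 0.05, all lower (33.3%), and Afp fell by 5.11 ± 0.79 log2 units (limma, adjusted p = 0.0403). Over 14 alternative settings each, the Gusb call was lost in 11, the Afp call in 8 and the B2m call in 4. Of 11 macrophage markers, 8 were below 0 (72.7%) with a median of -0.35, and 4 reached an unadjusted p under 0.05, all lower (36.4%). Their part in the lower values of the mitosis genes was not tested.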

How the data were processed

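The series holds 8 arrays, 1 mouse each, in 3 groups given by the sample titles. The authors deposited linear intensity for each probe set, made with RMA per the submitters' processing notes. The RMA software and version were not given in the sources used here. Deposited values differed in distribution between arrays, so whether they were normalized jointly is not known here, and quantile normalization was tried as an alternative. Log2 was taken of the deposited intensity, and no column was left unused (0).

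Of 45101 probe sets, 64 controls were left out and 45037 tested with limma 3.58.1 on R 4.3.3 (lmFit, eBayes without trend, two-sided, Benjamini-Hochberg over all tested probe sets, threshold 0.05). A 3-group model (5 residual degrees of freedom) gave the comparisons between single groups and a 2-group model (6) null minus all controls. One-gene probe sets numbered 34945, several-gene ones 932 and unnamed ones 9160, by GEO's platform annotation. Each of 18193 genes took its brightest one-gene probe set.

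Members and gene lists were chosen with earlier results of these data known, so they are described and not tested as lists. Values on every array are given for the 2 members of each role with the largest difference from controls, for Mki67 and for members whose null and control arrays do not overlap. Others shown so are named as further examples (Cdk1, Ccnb2 and the brightest Kif11 probe set, chosen after their values were seen), as are the further probe sets and Pttg1. From the lists of further mitotic, replication, transcription factor, inhibitor, housekeeping and hepatocyte genes, up to 3 genes of largest difference are described. No gene is named from the anaphase-promoting complex, cohesin, erythroid, lymphoid, megakaryocyte and mast cell lists. Ccne1 (a call in 1 comparison) and the markers named as bright or at background are named for that reason, after their values were seen.

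On simulated data with 50 probe sets per shift, null minus all controls called 2.0%, 32.0%, 70.0% and 90.0% of shifts of 0.5, 1, 2 and 4 log2 units, and 8 unshifted ones. The simulation drew shifted probe sets from all those tested and gave each probe set the same SD in every group. The members varied more over null than over heterozygous arrays, so these rates need not hold for them. Alternatives were quantile normalization, a pseudocount of 32, a filter on dim probe sets, array weights, a variance trend, the mean of probe sets, fits of 2 groups alone, and leaving out each array. The number of arrays limits the precision.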

Additional observations from a re-analysis of the deposited data

Results flagged for a closer look

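In 20 sets of 5 control values (the 19 members shown on every array and the median of the members), 2 had 1 array far from the other 4 by Dixon's test, where chance gives about 1 in 20. Both were wild type 2. For Mad2l1 it read 5.13, against 7.61 to 7.92 on the other control arrays, and for Cenpa 2.66, which is background on that array, against 6.03 to 7.30. Mad2l1 has 1 probe set, so no second one could be compared. For Cenpa the next probe set read 5.39 on wild type 2, within the 5.19 to 5.57 of the other control arrays. Groups of 3 and 2 arrays were too small for this test.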

How the results depend on the processing

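The negative median of the members in all 3 comparisons with null cells kept its sign under every alternative run, from -0.99 to -0.65 against all controls. With 1 array left out, its range was -0.99 to -0.70 against all controls, -1.04 to -0.71 against heterozygous and -0.89 to -0.52 against wild type. Members lower in null cells then numbered 37 to 39, 37 to 39 and 29 to 37, and at an unadjusted p under 0.05 they numbered 11 to 18, 7 to 17 and 5 to 13. Members past the threshold ranged over 0 to 3, 0 to 2 and 0 to 1. Without null 1 this was Kif23 in all 3 comparisons, without null 2 Ccna2, Nek2 and Incenp against all controls and Nek2 and Aurkb against heterozygous, without null 3 Cdk1 and Ccnb2 against all controls and Cdk1 against heterozygous, and without wild type 2 Birc5 against all controls. For Kif23, Incenp, Cdk1 and Ccnb2 the array left out was the null array that read above all controls. With the mean of all probe sets per gene, 4 members passed against all controls (Bub1b, Kif11, Ncapg and Ncaph), 2 against heterozygous and 1 against wild type, and 19 were lower than heterozygous at an unadjusted p under 0.05. Quantile normalization lowered such counts to 10 against all controls and 7 against heterozygous, and the fit of 2 groups alone to 3 against wild type. With 1 array left out, Ncapd2 ranged from -0.20 (without null 1) to 1.5 and Ube2c from -1.41 to 0.43 (without null 2), so their signs turned. The cause was not tested.

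Over all probe sets, the 262 calls against all controls ranged from 156 to 792 with 1 array left out. The 226 calls against heterozygous became 126 with the pseudocount and 140 with the trend (63 to 581 with 1 array left out). The 147 against wild type became 62 with the pseudocount, 90 with array weights, 95 with the trend and 4 with 2 groups alone (65 to 340). The single call between heterozygous and wild type became 5 with the pseudocount and 0 with the dim filter, the trend, the mean of probe sets and 2 groups alone (0 to 164). There the members' median was 0.015 after quantile normalization, 0.17 with the mean of probe sets and 0.027 to 0.33 with 1 array left out, with 0 members past the threshold. Where wild type kept 1 array, that array was assumed to vary like the other groups. The dim filter moved the median of all tested probe sets against controls to -0.14. No paired analysis was possible because the sample titles give animal numbers that no groups share.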
